A study of Mus musculus with 36 samples.

Results

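Mouse embryonic stem cells kept with leukemia inhibitory factor (LIF) and given cortisol were compared with the same cells given one of the other toxicants of the study, BP, DEP or PFOA. The comparison took 24 of the 36 libraries of the series by their labels alone: 6 libraries of cortisol at 10 or 60 µM (Cort10, Cort60) against 18 libraries of BP at 1 or 4 µM (BP1, BP4), DEP at 5 or 10 µM (DEP5, DEP10) and PFOA at 60 or 100 µM (PFOA60, PFOA100), with 3 libraries for each compound and dose. PFOA is perfluorooctanoic acid; BP and DEP are written as in the labels. The cells were 1 line of 129/sv origin with FUCCI reporters, fluorescent proteins that mark the phase of the cell cycle. All 24 cultures grew for about 18 h to about 24% confluence and then for 72 h with the toxicant in medium with 15% serum and LIF at 1000 U/mL. Per the series' design text, live imaging set both doses: the smaller one was the least that visibly harmed growth, and the larger one cut growth by 75%. The doses were thus matched by their effect on growth and not by concentration. Untreated cells with LIF (NS, 3 libraries) entered no fit, and their levels are given for orientation only. The series' design text calls the replicates biological triplicates, the labels number them 1 to 3, and the number was kept as a block in the test.

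Cortisol is a glucocorticoid hormone. It enters the cell and binds the glucocorticoid receptor, encoded by Nr3c1, which moves to the nucleus, binds DNA as a dimer at palindromic sites and raises or lowers the transcription of nearby genes. Well known targets in many tissues are Tsc22d3, which encodes the glucocorticoid-induced leucine zipper protein, Fkbp5, a co-chaperone that feeds back on the receptor, Per1, a clock gene, and Sgk1, a kinase that regulates ion transport. LIF holds mouse embryonic stem cells in the naive state of pluripotency. Cells that leave this state pass through a formative state marked by Otx2, Pou3f1 and Fgf5.

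Libraries were made from the 3' ends of transcripts and held 1848254 to 7288084 counts (median 4889642), with 2249286 to 7288084 in the cortisol libraries. Levels are CPM, counts scaled to a common library total after a scaling factor was applied to each total. On the totals before that factor, a count of 3 corresponded to 0.412 to 1.62 CPM. All 10 embryonic stem cell markers were detected in all 24 libraries, with a summed level of 3490 to 4250 CPM in cortisol and 2560 to 4190 CPM in the others. Pou5f1, the gene of the pluripotency factor Oct4, was low for such cells at a median of 20.7 CPM, and Sox2 had a median of 890 CPM. The replicate 3 libraries stood apart: ribosomal protein genes took 17.8% to 19.7% of their counts, and 16.8% in Cort60 replicate 3, against 11.6% to 15.2% in replicates 1 and 2. On the first principal component, which held 28.8% of the variance, Cort10 replicate 3 lay farthest out at 67.0, while Cort60 replicate 3 lay at 1.65, between the replicate 3 libraries of the other groups (32.7 or more) and replicates 1 and 2 (-15.6 or less). The 2 cortisol libraries of that replicate were thus unlike each other, and counts are also given without them. In bulk RNA, fewer cells of a kind and less RNA per cell cannot be told apart.

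Of 12796 genes tested, 83 differed between cortisol and the mean of the other toxicants at an adjusted p under 0.05 (quasi-likelihood test of edgeR, Benjamini-Hochberg adjusted over all genes tested), which is 0.649%. Cortisol had the higher level for 75 of them (0.586%) and the lower level for 8 (0.0625%). Genes said below to rise or fall were higher or lower in cortisol than in the mean of the others. Their change from NS was not tested. The differences were moderate: 42 of the 83 exceeded 1.5-fold, 10 exceeded 2-fold, and the median fold of the 75 genes was 1.49. All 83 differed in the same direction within each of the 3 replicate numbers, which the blocked test that picked them favours. The genes with the smallest p encoded the ubiquitin ligase Rnf128, the oxygen-sensing hydroxylase Egln3, the transcription factor Maff, the glucose transporter Slc2a1, the ubiquitin ligases Mkrn1 and Dtx3l and the transcription factor Etv5. The result rested on the replicate block: without it no gene passed, and 447 genes had an unadjusted p under 0.05. All 83 kept their direction, which the design all but fixed, as every group held the same replicate numbers. Without replicate 3 in any group 28 genes passed, and 24 of them were among the 83. Without the replicate 3 libraries of cortisol alone 32 passed, and 26 of them were among the 83.

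**Figure D1:**
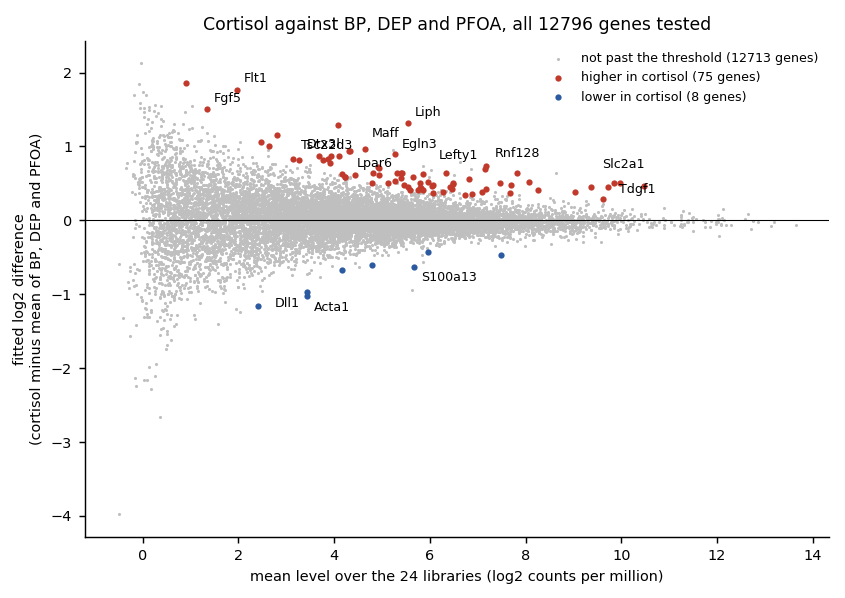
Fitted log2 difference of cortisol minus the mean of BP, DEP and PFOA (y axis) against the mean level in log2 CPM (x axis) for all 12796 genes tested. Each point is 1 gene: 75 genes past the threshold were higher in cortisol (red), 8 were lower (blue), and grey points are the rest.

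The windows around the start sites of 4 of these genes are shown because the sequences bear on the receptor that cortisol binds, on the hypoxia pathway to which Egln3 belongs and on the gene pair of Dtx3l. They hold 250 bases before and 50 after the start, 5′ to 3′ on the gene's strand, from RefSeq on GRCm38.p6. Rnf128 lies at chrX:139610370-139610669 (plus strand), Egln3 at chr12:54203825-54204124, Dtx3l at chr16:35938978-35939277 and the second of the 3 Tsc22d3 windows at chrX:140600473-140600772 (these 3 on the minus strand). Capitals mark AGAACA or its reverse complement TGTTCT, the core bound by the glucocorticoid receptor, in Dtx3l and Tsc22d3, and ACGTG, the core of the hypoxia response element, in Egln3. The Rnf128 window held neither. The first and the third Tsc22d3 windows held no AGAACA or TGTTCT, and the second is shown because it does.
Rnf128: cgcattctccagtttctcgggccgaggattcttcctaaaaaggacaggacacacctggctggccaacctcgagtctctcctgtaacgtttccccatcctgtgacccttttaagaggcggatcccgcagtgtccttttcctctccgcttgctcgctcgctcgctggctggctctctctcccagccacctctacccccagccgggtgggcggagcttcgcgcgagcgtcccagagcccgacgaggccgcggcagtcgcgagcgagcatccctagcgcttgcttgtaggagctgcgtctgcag
Egln3: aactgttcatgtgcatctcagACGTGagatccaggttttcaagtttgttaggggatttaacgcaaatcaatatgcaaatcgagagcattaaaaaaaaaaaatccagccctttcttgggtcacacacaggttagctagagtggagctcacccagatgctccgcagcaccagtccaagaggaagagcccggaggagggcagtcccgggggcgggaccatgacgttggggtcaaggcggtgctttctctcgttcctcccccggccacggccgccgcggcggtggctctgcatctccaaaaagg
Dtx3l: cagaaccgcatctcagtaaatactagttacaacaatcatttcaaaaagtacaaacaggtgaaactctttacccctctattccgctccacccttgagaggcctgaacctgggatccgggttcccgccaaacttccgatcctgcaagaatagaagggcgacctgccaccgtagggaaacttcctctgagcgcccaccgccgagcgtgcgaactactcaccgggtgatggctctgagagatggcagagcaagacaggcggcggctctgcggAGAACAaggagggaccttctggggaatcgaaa
Tsc22d3: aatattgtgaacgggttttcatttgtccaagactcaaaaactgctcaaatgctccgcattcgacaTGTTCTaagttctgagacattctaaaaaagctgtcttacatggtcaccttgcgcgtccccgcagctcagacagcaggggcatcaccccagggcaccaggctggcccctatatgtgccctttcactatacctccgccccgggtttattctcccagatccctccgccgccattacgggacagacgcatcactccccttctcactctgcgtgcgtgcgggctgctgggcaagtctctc

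Windows were found for 62 of the 83 genes, and some genes had more than 1. The 75 windows of genes that were higher in cortisol came from 56 genes. The 11657 windows of genes tested came from 9073 genes. AGAACA on either strand was in 7 of the 75 windows of genes that were higher in cortisol (9.33%) and in 12.2% of the 11657 windows of genes tested. The full palindrome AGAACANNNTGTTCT was in 0 of these 75 windows and in 0.00858% of all windows of genes tested. ACGTG or its reverse complement CACGT was in 25.3% of the 75 windows against 25.4% of all. TTCNNNGAA, a STAT-type site that reads alike on both strands, was in 9 of the 75 windows (12%) against 6.68%. These are letter matches in 1 window length and were not tested.

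Rnf128 passed the threshold against the mean of the other compounds and against each of them. This gene, also called GRAIL and known as a ubiquitin ligase of T cell anergy, had 299, 160 and 118 CPM in Cort10 replicates 1 to 3 and 356, 181 and 232 CPM in Cort60. The 18 other libraries had a lowest level of 87.4, a median of 121 and a highest of 216 CPM, and NS had 76.4, 87.7 and 93.5 CPM. Of the 6 cortisol libraries, 3 stood above every other library and the lowest, Cort10 replicate 3, lay within the range of the others. The mean was 224 ± 90.1 CPM (SD, n = 6) against 132 ± 42.0 CPM (n = 18), and the fitted difference was 1.67-fold (log2 0.74 ± 0.10 SE, adjusted p = 2.14e-05). Rnf128 was the only gene that passed against BP alone in the main fit, where 0.00781% of genes did. That call was not stable: no gene passed against BP without Cort10 replicate 1 or without replicate 1 in any group. Leaving out 1 library gave from 0 to 21 genes against BP.

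Egln3, a prolyl hydroxylase that marks hypoxia-inducible factors for breakdown and is itself induced by them, had 142, 46.3 and 16.6 CPM in Cort10 and 125, 62.7 and 49.0 CPM in Cort60. The other libraries had a lowest level of 12.3, a median of 26.6 and a highest of 94.3 CPM, and NS had 84.6, 27.3 and 14.4 CPM. Replicate 1 was the highest in every group, so that the groups overlapped in level while cortisol was higher within each replicate number. The fitted difference was 1.87-fold (log2 0.90 ± 0.12 SE, adjusted p = 2.14e-05).

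Maff, a small Maf protein that pairs with other basic leucine zipper factors, had 54.8, 33.1 and 29.1 CPM in Cort10 and 48.9, 34.9 and 48.0 CPM in Cort60. The others had a lowest level of 10.5, a median of 20.2 and a highest of 35.3 CPM. Of the 6 cortisol libraries, 3 stood above all others and 3 lay in the upper part of their range. The fitted difference was 1.95-fold (log2 0.96 ± 0.14 SE, adjusted p = 3.78e-05). Mkrn1, a ubiquitin ligase of the makorin family, had 656 to 1009 CPM in cortisol (mean 849 ± 136, n = 6) and 447 to 794 CPM in the others (mean 621 ± 100, n = 18), a difference of 1.37-fold (adjusted p = 0.000294).

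All 6 cortisol libraries exceeded all 18 others for 3 of the 12796 genes (0.0234%), and were below all 18 for none. They were Flt1, a receptor for vascular endothelial growth factor, Cds1, which makes CDP-diacylglycerol from phosphatidic acid, and Myh13, a myosin heavy chain. Flt1 had 6.92 to 12.1 CPM in cortisol and 0.142 to 5.50 CPM in the others, and the fitted difference was 3.40-fold (log2 1.77 ± 0.32 SE, adjusted p = 0.0012). The lowest of the others lay under the level of 3 counts, so the size of that fold rested partly on few counts. Cds1 had 38.5 to 50.1 CPM against 19.4 to 37.6 CPM (1.53-fold, adjusted p = 0.00419). Myh13 had 10.3 to 20.3 CPM against 1.36 to 10.2 CPM (2.23-fold, adjusted p = 0.00286). For Myh13 the gap was a small fraction of 1 CPM and 2 NS libraries, at 9.75 and 10.2 CPM, lay just under the cortisol range. Flt1 and Cds1 were singled out by this count, after their values were seen.

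**Figure D2:**
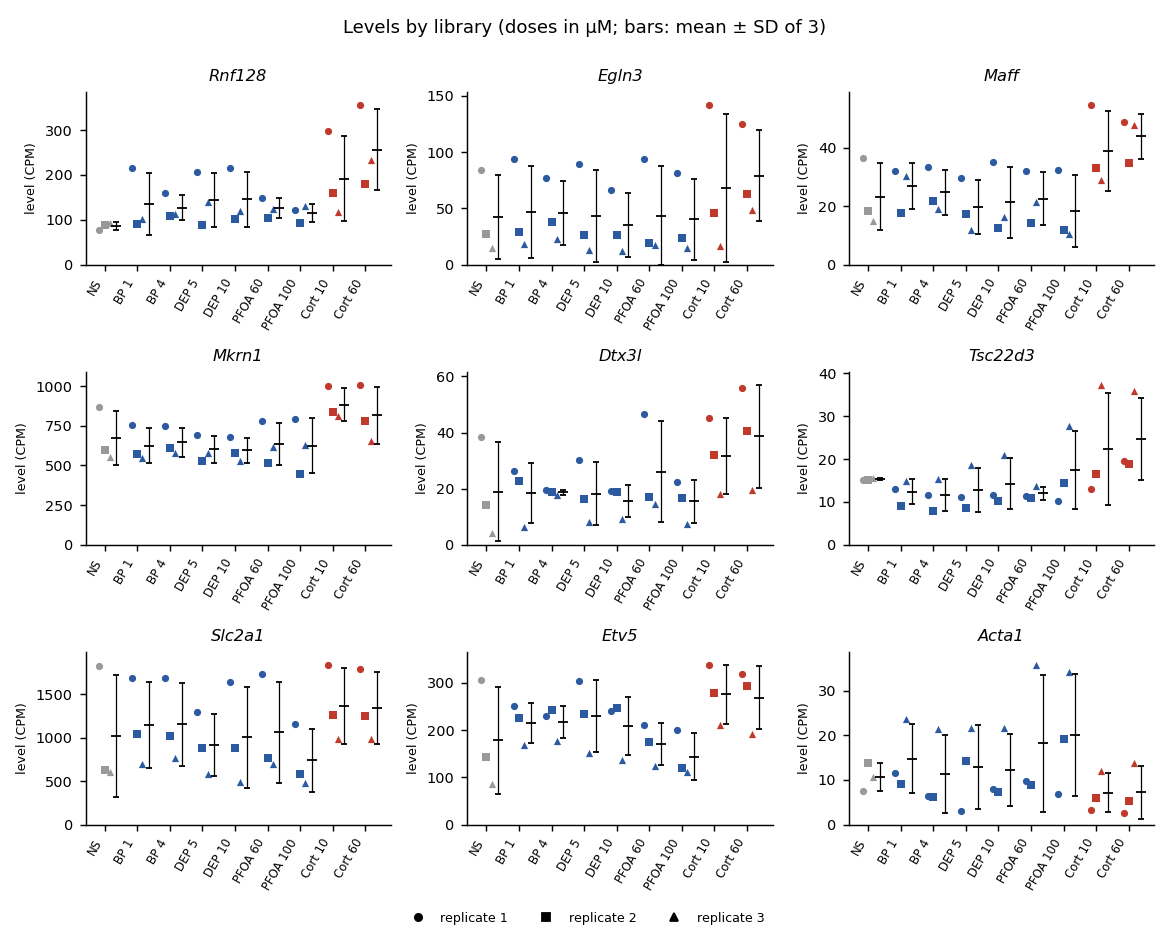
Level in CPM (y axis, from 0) of 9 genes in each library, by compound and dose in µM (x axis). Points are single libraries with the shape giving the replicate number, red for cortisol, blue for BP, DEP and PFOA and grey for untreated NS; black bars are mean ± SD of 3 libraries. Rnf128, Egln3, Maff, Mkrn1, Dtx3l, Tsc22d3, Slc2a1 and Etv5 lie higher in cortisol and Acta1 lower, and the replicate numbers keep their order within groups for Egln3 and Slc2a1.

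An enzyme and a receptor of the lysophosphatidic acid pathway were both higher in cortisol. Liph, a lipase that makes lysophosphatidic acid at the cell surface, had 82.6 to 105 CPM in cortisol, against a lowest level of 12.6, a median of 37.2 and a highest of 88.8 CPM in the others. Only the highest of the 18 reached the cortisol range. The fitted difference was 2.49-fold (log2 1.31 ± 0.18 SE, adjusted p = 0.0012). Lpar6, a receptor for lysophosphatidic acid, had 35.5, 40.9 and 7.38 CPM in Cort10 and 64.8, 51.7 and 28.6 CPM in Cort60, against a lowest level of 3.15, a median of 21.5 and a highest of 44.2 CPM. Replicate 3 was the lowest at both cortisol doses and the groups overlapped. The fitted difference was 1.92-fold (log2 0.94 ± 0.16 SE, adjusted p = 0.00105). The pairing of these genes was seen in the results and is no tested group.

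The glucocorticoid receptor itself did not pass. Nr3c1 had 7.38 to 28.4 CPM in cortisol and 15.3 to 33.1 CPM in the others (log2 -0.04 ± 0.16 SE, adjusted p = 0.977). The gene lists used here and below were chosen with earlier results of these data known. A share of called members above that of all genes tested is therefore a description and no test. Of 39 listed receptor and response genes in the tables, 29 had enough counts to be tested. Of these, 2 were called higher in cortisol, Tsc22d3 and Ddit4, where 0.586% of all genes tested were. The difference was positive for 20 of the 29 and negative for 9, and it was positive for 6661 of all 12796 genes. The median log2 difference was 0.076, beside 0.008 over all genes tested, and 9 members had an unadjusted p under 0.05, all of them higher in cortisol, where 697 of the 12796 genes did. Nr3c2, Hsd11b1 and Zbtb16 had too few counts to be tested.

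Tsc22d3, the leucine zipper gene, had 13, 16.6 and 37.4 CPM in Cort10 and 19.6, 18.9 and 35.8 CPM in Cort60. The 18 others had a lowest level of 7.85, a median of 11.5 and a highest of 27.8 CPM, and NS had 15.1, 15.2 and 15.7 CPM. Both replicate 3 libraries of cortisol stood above all others, and the other 4 lay inside the range of the 18. Tsc22d3 was 1.71-fold higher in the fit (log2 0.77 ± 0.15 SE, adjusted p = 0.00464), and it was no longer called without replicate 2 or without replicate 3. Ddit4, an inhibitor of mTORC1 that glucocorticoids and low oxygen both induce, had 602 to 2025 CPM in cortisol and 287 to 1994 CPM in the others (1.43-fold, adjusted p = 0.000634). It was not called without replicate 2 or without replicate 3 either.

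Other classical targets examined did not pass in the edgeR fit. Fkbp5 had 79.8 to 96.1 CPM in cortisol, 65.2 to 122 CPM in the others and 86.5 to 107 CPM in NS (log2 0.04 ± 0.09 SE, adjusted p = 0.959). Per1 had a log2 difference of 0.08 ± 0.15 SE (adjusted p = 0.95). Klf9, a zinc finger factor, had 182 to 496 CPM against 120 to 502 CPM (log2 0.39 ± 0.10 SE, adjusted p = 0.0704). Sgk1 had 45.2 to 246 CPM against 14.2 to 240 CPM (log2 0.61 ± 0.24 SE, adjusted p = 0.449). Some of these calls turned with the processing: DESeq2 called Klf9 (adjusted p = 0.0223) and Hif3a (0.0128), edgeR called Klf9 without replicate 2 (0.0164), and it called Sgk1 without replicate 1 (0.000339) or without PFOA100 replicate 1 alone (0.000153). Cebpd, Hif3a, Dusp1, Nfkbia and Glul had log2 differences of 1.06, 0.53, 0.34, 0.33 and 0.23 with adjusted p-values from 0.068 to 0.347. The 19 tested receptor cofactors and chaperones had a median log2 difference of -0.025, and none of them passed.

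**Figure D3:**
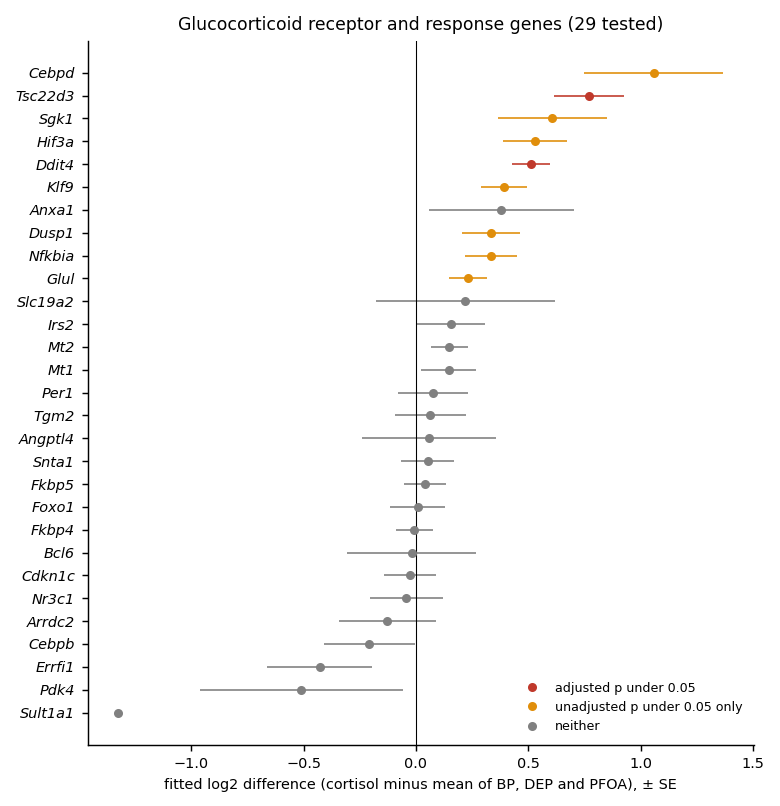
Fitted log2 difference of cortisol minus the mean of BP, DEP and PFOA (x axis, bars ± SE) for the 29 tested genes of the glucocorticoid list (y axis). Tsc22d3 and Ddit4 passed the threshold (red), 7 more had only an unadjusted p under 0.05 (orange), and Nr3c1, Fkbp5 and Per1 lie near 0; Sult1a1, without counts in some groups, has no bar.

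Genes of oxygen sensing and glucose use formed part of the result beside Egln3 and Ddit4. Of 26 listed glycolysis and hypoxia genes, 25 were tested, 3 rose (Egln3, Slc2a1 and Pdk1; 0.586% of all genes tested were called higher) and none fell, with 11 positive and 14 negative differences and a median of -0.005. Slc2a1, the glucose transporter GLUT1, had 1841, 1261 and 986 CPM in Cort10 and 1794, 1247 and 989 CPM in Cort60, against a lowest level of 478, a median of 881 and a highest of 1731 CPM. The Cort10 and Cort60 levels were nearly the same within a replicate number, and both replicate 1 libraries exceeded all others. In the fit Slc2a1 was 1.43-fold higher (log2 0.51 ± 0.08 SE, adjusted p = 0.00012). Pdk1, a kinase that turns off pyruvate dehydrogenase, had 57.2 to 165 CPM against 51.7 to 129 CPM (1.34-fold, adjusted p = 0.0198). NS replicate 1 had 1830 CPM of Slc2a1 and 1833 CPM of Ddit4, and the other NS libraries had 607 to 624 and 402 to 549 CPM.

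Some genes of the interferon response and of ADP-ribosylation also rose. Dtx3l, a ubiquitin ligase that works in a complex with Parp9 and is its neighbour on chromosome 16, had 45.1, 32.0 and 18.0 CPM in Cort10 and 56.0, 40.6 and 19.4 CPM in Cort60. The others had a lowest level of 6.29, a median of 18.3 and a highest of 46.7 CPM, and NS had 38.4, 14.3 and 4.09 CPM. The replicate 3 libraries of cortisol lay near the median of the 18, although above the mean of their own replicate number. Dtx3l was 1.91-fold higher in the fit (log2 0.93 ± 0.15 SE, adjusted p = 0.000294). Parp9 was 1.45-fold higher (adjusted p = 0.0198) and Parp14, another ADP-ribosyltransferase, 1.76-fold higher (adjusted p = 0.0198).

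Of 25 listed interferon and antigen presentation genes, 20 were tested and 2 rose, where 0.586% of all genes did: the immunoproteasome subunit Psmb8 (1.49-fold, adjusted p = 0.0198) and Ifitm3, an antiviral membrane protein (1.55-fold, adjusted p = 0.0403); 15 differences were positive and the median was 0.220. The lowest difference in that list was that of B2m, the light chain of MHC class I molecules, which did not pass against the mean of the others (log2 -0.35, adjusted p = 0.0508) and was lower against PFOA (-0.47 ± 0.11 SE, adjusted p = 0.0118). Outside that list, Pml, the scaffold of PML nuclear bodies, was 1.42-fold higher (adjusted p = 0.00105), with 193 to 308 CPM in cortisol and 104 to 227 CPM in the others. The guanylate-binding protein genes Gbp1, Gbp2 and Gbp6 were 1.54-fold, 1.44-fold and 1.63-fold higher (adjusted p-values of 0.00374, 0.0198 and 0.00419). They belong to a family of near copies, and reads could have been split between them. Parp9, Parp14, Pml and the Gbp genes were picked after their values were seen. Gbp1 had 21.6 to 48.4 CPM and Gbp6 10.8 to 15.7 CPM in NS, below the cortisol ranges of 63.9 to 106 and 24.0 to 66.0 CPM, and the other toxicants had medians of 48.5 and 28.2 CPM.

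Several members of the formative list, but only 1 each of the naive and the core pluripotency list, were called higher in cortisol than in the mean of the others. Of the 18 formative genes listed, all tested, 4 were called higher (Etv5, Otx2, Pou3f1 and Fgf5), where 0.586% of all genes were. A positive difference was seen for 17, as for 6661 of all 12796 genes, and the median was 0.273. No member of the list passed against BP alone or DEP alone, and 5 were higher against PFOA. Etv5, an ETS factor that acts downstream of fibroblast growth factor, had 193 to 337 CPM in cortisol and 112 to 305 CPM in the others (1.40-fold, adjusted p = 0.000294). Otx2, a homeodomain factor, had 456, 547 and 145 CPM in Cort10 and 476, 492 and 219 CPM in Cort60, against a lowest level of 111, a median of 264 and a highest of 444 CPM (1.43-fold, adjusted p = 0.00287). The 4 libraries of replicates 1 and 2 exceeded all 18 others, and those of replicate 3 did not. Pou3f1 was 1.34-fold higher (adjusted p = 0.0229). Fgf5 had 0 to 12.1 CPM in cortisol and 0 to 15.5 CPM in the others, so that its fitted 2.84-fold difference (adjusted p = 0.0427) rested on few counts.

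Of the 21 naive genes, Lefty1 rose, an inhibitor of Nodal, with 64.5 to 165 CPM against 25.8 to 131 CPM (1.55-fold, adjusted p = 0.00287). Of the 13 core genes, Tdgf1 rose, the Nodal co-receptor Cripto, with 923 to 1246 CPM against 447 to 1182 CPM (1.36-fold, adjusted p = 0.00163). The medians of the naive and the core list were 0.056 and 0.071. The naive list had 16 positive and 5 negative differences and the core list 9 and 4. Over all genes tested, 0.586% were called higher and the median was 0.008. Spry2, a feedback inhibitor of growth factor signalling, was 1.5-fold higher (adjusted p = 0.00431), a gene outside the lists and picked after its value was seen. Other members that rose were E2f1, a factor of S phase entry (1 of 24 in its list, with 12 positive and 12 negative differences and a median of 0.002; 1.33-fold, adjusted p = 0.0198), and Sycp3 of the synaptonemal complex (1 of 15 germline genes, with 5 positive and 10 negative differences and a median of -0.070; 1.39-fold, adjusted p = 0.0268).

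The remaining named genes that rose included Prickle1 of planar cell polarity (2.44-fold), the membrane serine protease Tmprss13 (2.08-fold), Psors1c2 (1.84-fold) and Rbbp7, a histone-binding subunit of chromatin complexes (1.33-fold, adjusted p = 0.00287). Prickle1 had 46, 59.5 and 4.62 CPM in Cort10 and 43.9, 51.7 and 26.2 CPM in Cort60, against a lowest level of 1.88, a median of 19.3 and a highest of 42.0 CPM (adjusted p = 0.00775). Cort10 replicate 3 lay far under the other 5 cortisol libraries. Rbbp7 had the narrowest spread of these, with 323 to 409 CPM in cortisol and 185 to 354 CPM in the others.

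Of the 8 genes that were lower in cortisol, 7 met the naming rule. S100a13, a calcium-binding protein, had 25.9, 23 and 158 CPM in Cort10 and 15.5, 19.6 and 89.9 CPM in Cort60, against a lowest level of 22.1, a median of 39.8 and a highest of 227 CPM (1.54-fold lower, adjusted p = 0.00775). Acta1, the skeletal muscle actin, had 3.38, 6.05 and 12 CPM in Cort10 and 2.51, 5.35 and 13.8 CPM in Cort60, against a lowest level of 2.98, a median of 10.6 and a highest of 35.9 CPM (2.04-fold lower, adjusted p = 0.0103). For both genes replicate 3 was the highest of every toxicant and the groups overlapped. Dll1, a ligand of Notch receptors, was 1.97-fold lower (adjusted p = 0.0179) with 3.34 to 15.2 CPM against 3.78 to 40.3 CPM. Rnf11, a RING protein, was 1.59-fold lower (adjusted p = 0.0311), Slc25a20, the mitochondrial carnitine carrier, 1.52-fold lower (adjusted p = 0.041), Tmem55b, a phosphoinositide phosphatase of lysosomes, 1.39-fold lower (adjusted p = 0.0133) and Gstm5, a glutathione transferase, 1.34-fold lower (adjusted p = 0.0198). Gstm5 had 37.2 to 58.1 CPM in cortisol and 53.2 to 92.8 CPM in the others. Slc25a20 was the only called gene of 23 tested in the list of PPAR targets and fatty acid oxidation, where 0.0625% of all genes tested were called lower. In that list 15 differences were negative and 8 positive.

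Against single compounds, which share the 6 cortisol libraries and are therefore not independent, 1 gene passed against BP, 32 against DEP (0.25%; 28 or 0.219% higher, 4 lower or 0.0313%) and 234 against PFOA (1.83%; 172 or 1.34% higher, 62 or 0.485% lower). Of the 83 genes, the difference was largest against PFOA for 48, against DEP for 27 and against BP for 8. Whether the other compounds differed among themselves was tested directly, and 188 genes did (1.47%). Of the 83, 18 were among these 188, all of them higher in cortisol, and for 17 of the 18 the largest difference was against PFOA. The exception was Rbbp7, with log2 0.48 against BP, 0.59 against DEP and 0.16 against PFOA.

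Etv5 had log2 differences of 0.32 ± 0.10 SE against BP, 0.33 ± 0.10 against DEP and 0.80 ± 0.10 against PFOA, and the compounds differed among themselves (adjusted p = 0.00348). Otx2 had 0.22, 0.27 and 1.04 (adjusted p among the others = 8.19e-05), and its PFOA libraries averaged 183 ± 74.5 CPM beside 334 ± 136 in BP and 326 ± 142 in DEP (n = 6 each). Psors1c2 had 0.32, 0.32 and 2.0, and Fgf5 0.30, 0.90 and 3.32. For these 4 genes the difference lay chiefly between cortisol and PFOA. Ddit4 had 0.20, 0.46 and 0.87, and Slc2a1 had 0.28, 0.57 and 0.68, which places BP nearest to cortisol for both.

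Other genes showed no difference among BP, DEP and PFOA past the threshold. Rnf128 had 0.75 ± 0.12 SE against BP, 0.63 ± 0.12 against DEP and 0.83 ± 0.12 against PFOA, and it passed in each (adjusted p-values of 0.00436, 0.00835 and 5.83e-05; 0.695 among the others). Dtx3l had 0.91, 1.07 and 0.81, Mkrn1 0.42, 0.50 and 0.44, Tsc22d3 0.90, 0.78 and 0.64, and Egln3 0.70, 1.04 and 0.97. A p that misses the threshold does not show that the 3 compounds acted alike on them. Of the genes that were lower against DEP, Sdc4 (-0.57) and Rab3il1 (-0.76) were named, and of those lower against PFOA, Cdkn2a (-0.81), a cell cycle inhibitor locus, and Scd2 (-0.60), a fatty acid desaturase; none of these 4 passed against the mean of the other compounds. Ldhb, Atp9a and Car2 differed among BP, DEP and PFOA with adjusted p-values of 5.37e-08, 1.17e-05 and 1.17e-05 but not between cortisol and their mean (log2 -0.02, 0.12 and -0.07).

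**Figure D4:**
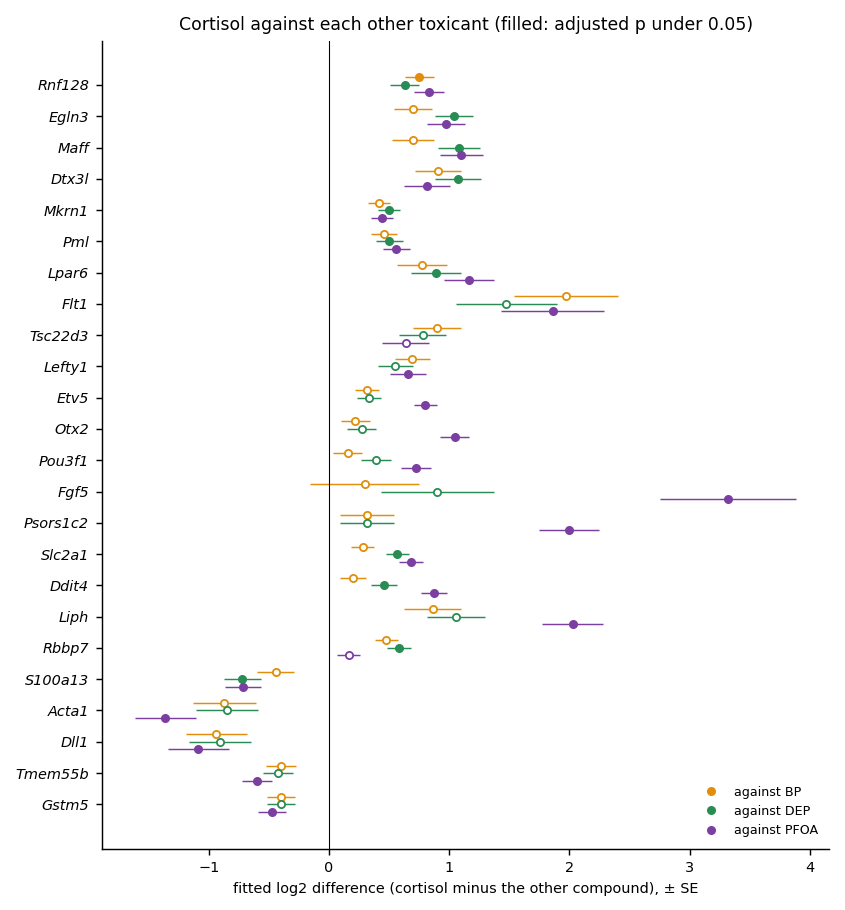
Fitted log2 difference of cortisol minus BP, DEP or PFOA (x axis, bars ± SE) for 24 genes (y axis); filled points passed the threshold. Rnf128 differs by a similar size from each compound and passes in all of them, while Etv5, Otx2, Pou3f1, Fgf5 and Psors1c2 lie farther from PFOA than from BP and DEP; all comparisons share the 6 cortisol libraries.

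Doses were compared at like effect on growth. At the higher doses, Cort60 differed from the mean of BP4, DEP10 and PFOA100 in 32 genes (0.25%; 31 or 0.242% higher, 1 or 0.00781% lower), led by Rnf128 (log2 0.97 ± 0.14 SE, adjusted p = 0.000116), Egln3 (1.19 ± 0.17, 0.000116) and Lpar6 (1.42 ± 0.23, 0.000845). The gene that was lower was S100a13 (-0.91 ± 0.19, 0.0248). Only 4 genes passed without Cort60 replicate 3, and 76 passed without Cort60 replicate 2. At the lower doses, Cort10 differed from the mean of BP1, DEP5 and PFOA60 in 0 genes by edgeR (0%), with 778 at an unadjusted p under 0.05 and 4 by DESeq2. For the same leading genes the lower-dose differences were 0.50 ± 0.14 SE for Rnf128, 0.61 ± 0.17 for Egln3 and 0.47 ± 0.23 for Lpar6.

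The doses of cortisol were not shown to differ. Cort60 against Cort10 gave 0 genes by edgeR (0%) and 0 by DESeq2, with 942 at an unadjusted p under 0.05. Rnf128 was 0.43 ± 0.17 SE and Egln3 0.54 ± 0.22 SE higher on the log2 scale in Cort60 (adjusted p = 0.665 for each). The change from the lower to the higher dose of cortisol, set against the same change in the other toxicants, gave 0 genes by either tool (0%), with 721 at an unadjusted p under 0.05. With no filter on low counts 1 gene passed between the cortisol doses and 2 for the change with dose, and without Cort60 replicate 2 there were 2 between the cortisol doses.

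Single libraries decided most calls. Fits that left out 1 cortisol library kept from 45 (without Cort60 replicate 3) to 59 (without Cort60 replicate 2) of the 83 calls, and 48 without Cort10 replicate 1. Of the 83 genes, 25 passed against the mean of the others in every fit that left out 1 library. Of these, 12 also passed against that mean without each replicate number: Egln3, Rnf128, Maff, Slc2a1, Mkrn1, Dtx3l, Etv5, Pml, Nrtn, Liph, Sfn and Flt1. Nrtn, a ligand of the GDNF family, and Sfn, a 14-3-3 protein, were 1.55-fold and 1.56-fold higher and are named here only for that count. Without Cort60 replicate 3 the calls of Otx2, Gbp6, Spry2, Pdk1, Parp14, Pou3f1, Sycp3, Fgf5, Tmprss13, Ifitm3, S100a13, Tmem55b, Dll1, Gstm5, Rnf11 and Slc25a20 were lost. The calls of Fgf5, Tmprss13, Ifitm3, Rnf11 and Slc25a20 were also lost without one or another library of BP, DEP or PFOA. Of the genes lost without Cort60 replicate 3, all but Otx2 and Gbp6 were also lost without some other cortisol library. Otx2 without Cort60 replicate 3 had an adjusted p of 0.0549 and Gbp6 one of 0.0674. Prickle1 was lost without Cort10 replicate 2 (adjusted p = 0.0685). Psors1c2 was lost without Cort10 replicate 3 (0.138) and also without Cort60 replicate 1. Parp9, Gbp2, Psmb8 and E2f1 were lost without one or more cortisol libraries, with highest adjusted p-values of 0.082, 0.209, 0.107 and 0.156. Summed markers of other cell types overlapped between cortisol and the others: fibroblast markers had 226 to 594 against 176 to 623 CPM, trophoblast markers 158 to 411 against 137 to 266 CPM, extraembryonic endoderm markers, with Ttr at 0, 12.1 to 25.3 against 10.4 to 27.0 CPM, early mesoderm markers 4.6 to 12.9 against 7.43 to 23.5 CPM and neural markers 45.8 to 79.2 against 31.5 to 90.9 CPM. No marker of these types passed, and their part in the results was not tested.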

How the data were processed

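Libraries of transcript 3' ends (Lexogen QuantSeq) were made from lysed cultures, per the labels. The authors deposited raw counts per gene in tables that set one condition beside NS, and these counts were used as deposited. CASAVA 1.8.2, STAR, HTSeq, edgeR and mm9 are named in the submitters' processing notes with no role; whether counting used strand was not given in the sources used here, so overlapping and antisense genes cannot be told apart. The 24 libraries held 1848254 to 7288084 counts.

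Genes with enough counts by edgeR's filterByExpr (12796 of 21516) were fitted in edgeR 4.0.16 (R 4.3.3, limma 3.58.1) with TMM scaling, 8 group means and the replicate number as block, and tested by the quasi-likelihood test with Benjamini-Hochberg adjustment over all genes tested at a threshold of 0.05. The SE of a log2 difference is its size divided by the square root of F. Levels are CPM on TMM-scaled totals; differences per replicate number used log2 CPM with a prior count of 2. NS libraries were scaled to the same reference.

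Genes were named by size and p among those called, moving the same way within each replicate number and with at least 10 CPM on the higher side, plus the leading called members of each list; exceptions are stated. The members and lists were chosen with earlier results of these data known. Alternatives were DESeq2 1.42.0, RLE scaling, other filters, no block, and fits without single libraries, replicate numbers or compounds. P-values measure the spread between the 3 libraries of a group that was left after the block took out differences between replicate numbers. One gene that met the naming rule is not reported here.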

Additional observations from a re-analysis of the deposited data

Results flagged for a closer look

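Among 41 named genes examined in the 6 cortisol libraries, Prickle1 held 1 library far from the rest. Cort10 replicate 3 had 4.62 CPM while the other 5 had 26.2 to 59.5 CPM, and on the log2 CPM scale its gap to the nearest was 0.672 of the whole range. Chance gives such a gap in about 1 of 20 groups of like libraries. Here 41 genes were examined and the 6 libraries differed in dose and replicate number, so the gap is a flag and no test. The call of Prickle1 was kept without that library.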

How the results depend on the processing

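The direction of the 83 calls was kept in every alternative in which they were tested (82 of them under the stricter filter on low counts), and 82 were also called by DESeq2. The alternatives refitted the libraries that picked these calls, or a part of them, which favours a kept direction. The number of calls was not stable. Without the replicate block, cortisol against the mean of the others gave 0 genes, BP 0, DEP 0, PFOA 11, Cort60 against the higher doses 0 and the test among the others 6. The labels do not say that a replicate number marks a shared day or batch. Of 84 pairs of libraries with the same number, 78 had deviations from their group means correlated over 0.1 (lowest 0.0214, mean 0.302). All 24 libraries correlated best with their own number, a hint from the data and not from the design. The mean for different numbers was -0.145. It adds nothing, since deviations from a group mean cancel within the group and a positive mean for the same number forces a negative one here.

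With no filter on low counts the numbers were 145 for the main comparison, 48 for BP, 101 for DEP, 359 for PFOA, 23 for Cort10, 109 for Cort60 against the higher doses, 1 for Cort60 against Cort10, 2 for the change with dose and 456 among the others. DESeq2 gave 139, 26 for BP, 100 for DEP, 4 for Cort10, 67 for Cort60 and 375 among the others. RLE scaling gave 3 for BP. Fitting cortisol against the rest as a pair of levels gave 51, leaving out the PFOA libraries 53, and leaving out both cortisol replicate 3 libraries, chosen after seeing the data, 32. The cause was not tested.

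Leaving out 1 library gave 54 to 138 genes for the main comparison (138 without PFOA100 replicate 1), 0 to 21 for BP, 18 to 66 for DEP, 109 to 522 for PFOA, 0 to 8 for Cort10, 4 to 76 for Cort60 against the higher doses, 0 to 2 for Cort60 against Cort10 and 52 to 532 among the others. Leaving out a replicate number gave 28 to 60, 0 to 6 for BP, 16 to 21 for DEP, 31 to 353 for PFOA, 0 to 3 for Cort10, 2 to 32 for Cort60 and 31 to 212 among the others. At this depth and n, genes under about 10 CPM, such as Fgf5, rest on few counts.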

Other observations

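Of the lists with no called member, the 6 tested genes of the 2-cell-like state had the highest median log2 difference, 0.483, with 5 positive differences, beside 0.008 for all genes tested. The 12 tested trophoblast genes had 8 positive differences and a median of 0.210, and the 5 tested fibroblast genes had 4 negative differences and a median of -0.260. Histone genes, 52 tested, had 37 negative differences and a median of -0.166, and the 7 tested osmolyte genes were all negative with a median of -0.147. The 6 tested genes of the aryl hydrocarbon receptor battery, known targets of polycyclic hydrocarbons, had 5 negative differences and a median of -0.291. Cholesterol synthesis genes (23 tested) had a median of -0.003, p53 targets (25) -0.036, oxidative phosphorylation genes (35) -0.035, heat shock genes (18) -0.057 and ribosomal protein genes (80) 0.013.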
